A study of Mus musculus with 2 samples.

Results

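The microRNA genes of the Mir191-Mir425 locus on mouse chromosome 9 and the Mir378a position inside Ppargc1b were described in the embryonic forebrain. They were chosen by gene name as 3 of the 1973 microRNA genes in the deposited tables. Mir425 was read on its own strand. Gm24083 and Gm25301 were read on the opposite strand, because Mir191 and Mir378a lie inside them on the other strand and are not among the genes of the tables. The members were picked with their counts in view, so their levels are a description and carry no test.

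Small RNA of forebrain from B6NCrl mouse embryos at 13.5 days was sequenced in 2 libraries of 1 group, with male and female tissue pooled and the animals labelled healthy. No treatment or mutant allele is named in the labels, so the libraries, biological replicates 2 and 1, were set against each other and no conditions were compared. They have separate biosample names but 1 donor name, and how embryos were divided between them is not labelled. Their spread may therefore be technical in part, and in such bulk tissue fewer expressing cells and less RNA per cell cannot be told apart.

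MicroRNAs are cut from hairpin precursors, and the mature strand finds its targets mainly through its seed, bases 2 to 8. Mir191 and Mir425 are widely expressed, lie side by side, and are known to come from a shared primary transcript. miR-191 has been used as a reference for normalising small RNA measurements. Mir378a sits in an intron of Ppargc1b, which encodes a transcriptional coactivator of mitochondrial and lipid metabolism, and in mice it has been studied for its part in energy balance.

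The mature strands of the chromosome 9 locus are shown with the seed in capitals, since the seeds tell the neighbours apart although they share a transcript. Sequences are from RefSeq on GRCm38.p6, plus strand, 5′ to 3′.
mmu-miR-191-5p: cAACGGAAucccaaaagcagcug
mmu-miR-191-3p: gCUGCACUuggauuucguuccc
mmu-miR-425-5p: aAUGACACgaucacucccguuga
mmu-miR-425-3p: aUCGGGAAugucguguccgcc
No seed was shared among these 4 strands. Of the other RefSeq mature microRNAs searched, which left out the chromosome of Mir378a, 1 shared a seed with any of them. This was miR-489-3p, from Mir489 on chromosome 6, with the seed of miR-425-5p.
mmu-miR-489-3p: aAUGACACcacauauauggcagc
Mir489 had 5 counts in replicate 2 and 1 count in replicate 1, against 5194 and 6586 counts at Mir425. The counts do not separate the arms of a hairpin.

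The hairpins are shown with both mature strands in capitals, because the tables count reads per gene: those of Mir425 over its own hairpin, and those of Mir191 over the longer span of Gm24083 that holds it.
Mir191 hairpin: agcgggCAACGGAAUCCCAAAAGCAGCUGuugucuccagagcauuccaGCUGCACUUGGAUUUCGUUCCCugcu
Mir425 hairpin: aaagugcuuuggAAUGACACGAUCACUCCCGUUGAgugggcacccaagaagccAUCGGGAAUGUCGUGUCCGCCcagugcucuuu
The Mir191 hairpin spans chr9:108568319-108568392 and is 74 nucleotides long. The Mir425 hairpin spans chr9:108568777-108568861 and is 85 nucleotides long, and 384 nucleotides separate the hairpins. Their G and C content was 54.1% in each, and RNAfold gave minimum free energies of -35.0 kcal/mol for Mir191 and -31.7 kcal/mol for Mir425, with 56 nucleotides paired in either. The longest stretch the hairpins had in common was 7 nucleotides, and neither had a copy among annotated microRNA transcripts.

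In GENCODE M21 (GRCm38), a later annotation than the one behind the tables, both hairpins lay within the long noncoding RNA gene 4833445I07Rik (chr9:108567533-108569174, plus strand), and not within Dalrd3. Its unspliced transcript held both hairpins in its single exon. Mir191 lay in the intron of the spliced transcript, 138 nucleotides after the first exon and 91 before the second. Dalrd3, named for an anticodon-binding domain of its protein, began 1024 nucleotides downstream of Mir425 on the same strand. Gm24083 (ENSMUSG00000092915.1) spanned chr9:108568295-108568414 on the minus strand and covered all 74 nucleotides of Mir191. The transcripts of 4833445I07Rik, Dalrd3 and Ppargc1b are not among the genes of the tables, so no comparison of host and microRNA levels was made.

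**Figure D1:**
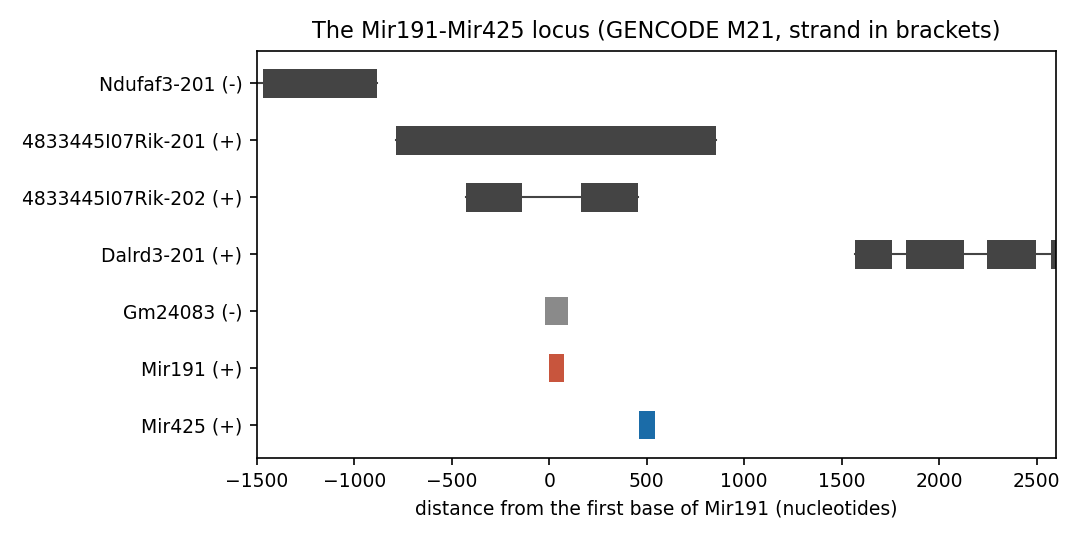
Map of the Mir191-Mir425 locus, with distance in nucleotides from the first base of Mir191 on the horizontal axis and 1 transcript or microRNA gene per row, exons as boxes and the strand in brackets. Mir191 and Mir425 lie inside 4833445I07Rik, 384 nucleotides apart, Gm24083 covers Mir191 on the minus strand, and Dalrd3 starts 1024 nucleotides after Mir425.

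Gm25301 (ENSMUSG00000093026.1, chr18:61397813-61397925, plus strand) covered all 66 nucleotides of Mir378a, which lies on the minus strand. Mir378a was intronic in each of the 3 Ppargc1b transcripts that span it, on the strand of the host, 2389 nucleotides from the first exon of the host.

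Across the whole series, replicate 2 held 10452225 reads and replicate 1 held 10631040, of which 3908953 and 4117752 were counted on the strand of a microRNA gene. Levels are given as reads relative to 1000000 of those gene counts (RPM), so 1 count equals 0.256 RPM in replicate 2 and 0.243 RPM in replicate 1. Multi-mapped reads, 43.9% of replicate 2 and 40.6% of replicate 1, stand outside the gene counts. Neural markers held 2.15% and 2.52% of the gene counts, led by Mir92b and Mir137, which have no copies. The other 7 measured genes of that list have copies elsewhere, and multi-mapped reads are not in their counts. Their place below Mir92b and Mir137 is therefore one of counted reads. The striated muscle list, of interest because miR-378 is abundant in muscle, held 171 and 229 counts. Of its 8 measured genes, 4 had at least 10 counts in each library. Counts in replicates 2 and 1 were 132 and 156 at Mir208b, 13 and 43 at Mir206, 16 and 15 at Mir208a, and 10 and 15 at Mir499. The list's members Mir133b, Mir1a-1 and both Mir133a genes were at 0 counts, and these 4 have copies elsewhere. The 3 Mir124a genes, which mark neurons and also have copies, held 3 to 20 counts each.

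Mir191 gave the most reads of the 3 microRNAs. Gm24083 held 10559 opposite-strand counts in replicate 2 and 10092 in replicate 1. These are 2701 and 2451 RPM, or 2576 ± 177 RPM (SD, n = 2). Opposite-strand reads are not part of the own-strand gene counts, so for them RPM is a ratio to that total and not a share of it. Gm24083 ranked 65 and 67 among the 3946 gene-by-strand features, each gene being counted once per strand.

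Mir425 (ENSMUSG00000065579.1) held 5194 own-strand counts in replicate 2 and 6586 in replicate 1. These are 1329 and 1599 RPM, or 1464 ± 191 RPM (SD, n = 2). Its ranks were 83 and 81.

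Mir378a reads were the fewest of the 3, with 4752 opposite-strand counts at Gm25301 in replicate 2 and 4337 in replicate 1. These are 1216 and 1053 RPM, or 1134 ± 115 RPM (SD, n = 2), with ranks of 86 and 97. Both libraries gave the order Mir191, Mir425, Mir378a, and the ranges of the 3 did not overlap. RPM were not scaled by length, and how evenly different microRNAs were captured was not measured, so the order is one of reads and need not be one of molecules. Of the 3 members only Gm25301 has a copy, Mir378c. Multi-mapped reads are not in its counts, so its level alone may be too low for this reason.

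**Figure D2:**
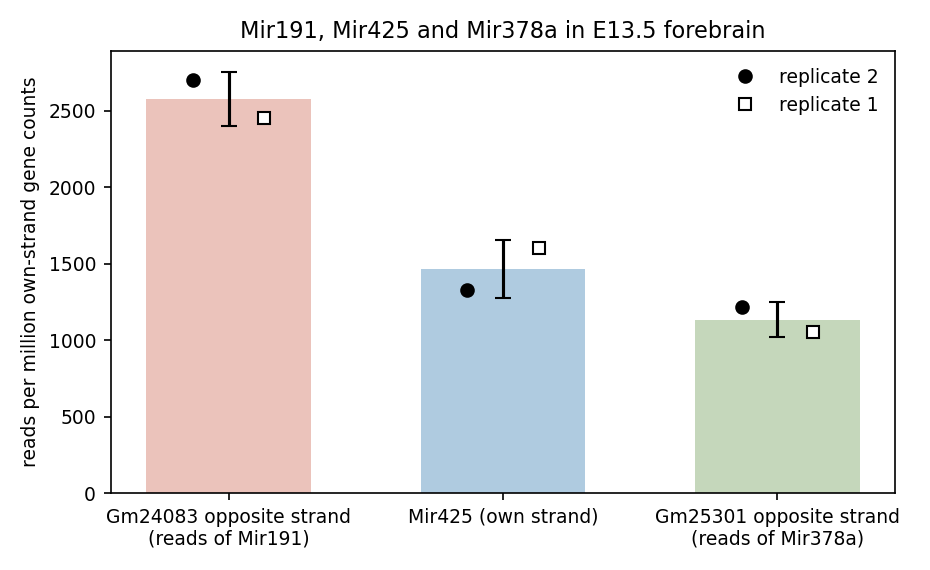
Levels in RPM for Gm24083 opposite-strand reads (the Mir191 position), Mir425 own-strand reads and Gm25301 opposite-strand reads (the Mir378a position). Bars are means, error bars SD over 2 libraries, filled circles replicate 2 and open squares replicate 1; Mir191 is highest at 2701 and 2451, and Mir425 is the member that is lower in replicate 2.

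Each of the 3 members was read on 1 strand only. Gm24083 had 0 own-strand counts beside its 10559 and 10092 opposite-strand counts, which allows an own-strand share of up to 0.0284% in replicate 2 and 0.0297% in replicate 1. Gm25301 also had 0 own-strand counts, which allows up to 0.0631% and 0.0692%. Mir425 had 0 opposite-strand counts, which allows up to 0.0578% and 0.0456%. These limits cover counting error only.

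Genes that lie opposite another annotated microRNA gene formed the background for this pattern. Of 32 such genes in the tables, 11 had at least 50 opposite-strand counts in each library, and 8 of the 11 had 0 own-strand counts in both. Gm24083 and Gm25301 are themselves among the 11 and among the 8. The 11 were taken by their opposite-strand counts, which leaves out genes read mainly on their own strand. Among the 32, Mir126a had 73599 own-strand and 3 opposite-strand counts in replicate 2. By mean level Gm24083 had rank 4 and Gm25301 rank 5 among the 32. Above them were Gm24321 (opposite Mir409) at 6235 ± 1679 RPM, Gm25927 (opposite Mirlet7e) at 4888 ± 107 RPM and Gm25252 (opposite Mir376a) at 3249 ± 316 RPM. Below them the RPM ran from 975 ± 136 at Mir299b through Gm25750, Mir497b, Mir142b and Gm25641 to 78.8 ± 10.5 at Gm24111 (SD, n = 2). Together Gm24083 and Gm25301 made up 20.1% of all opposite-strand counts in replicate 2 and 15.9% in replicate 1.

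By mean level the members had ranks 67, 82 and 94 among the 392 detected features, those with at least 10 counts in each library. Nearest to Gm24083 in mean level, compared over 2 libraries, were Mir298 and Mir381 above and Mir107 and Mir125b-1 below. Mir107, in an intron of the pantothenate kinase gene Pank1, had 2380 ± 39.1 RPM and differed from Gm24083 by 0.11 on the log2 scale. Nearest to Mir425 were Mirlet7f-2 and Mir434 above and Mir125b-2 and Mir351 below, which differed from it by -0.07 to 0.06 on the log2 scale, less than its own spread. Nearest to Gm25301 were Mir467c, Mir154, Mir674 and Mir134. Mir674 had 1134 ± 5.14 RPM, the same as Gm25301 to 4 digits.

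**Figure D3:**
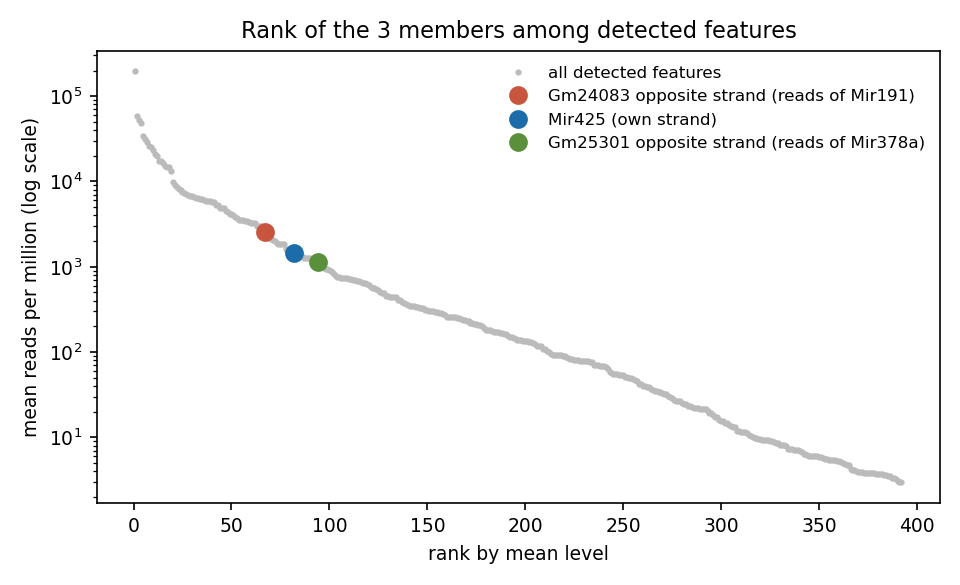
Mean RPM (log axis) against rank for the 392 detected features (grey), with the 3 members in colour. They fall at ranks 67, 82 and 94 by mean level, on a part of the curve where neighbouring features differ little.

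Counted reads of the miR-378 family lay mostly at the Ppargc1b locus. The other family genes had few counts: Mir378c had 8 in replicate 2 and 8 in replicate 1, Mir378d had 5 and 5, and Mir378b had 1 and 3. Of the family's counts, 99.7% in replicate 2 and 99.6% in replicate 1 fell at Gm25301. The exact (Clopper-Pearson) 95% interval for the share of the other 3 genes was 0.161 to 0.492% in replicate 2 and 0.210 to 0.596% in replicate 1. Mir378a shared an exact stretch of 20 nucleotides with Mir378c, 19 with Mir378b and 15 with Mir378d. Short reads within such a stretch would be multi-mapped and add no count to either gene, so the family's level may be too low and these shares leave out reads that could not be placed. How many such reads there were was not tested.

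The members moved in different directions between the libraries. With TMM scaling and two-sided exact binomial tests over 498 features, Gm24083 was higher in replicate 2 by 0.25 on the log2 scale (exact 95% interval 0.21 to 0.29, adjusted p = 9.62e-35). Gm25301 was also higher, by 0.32 (0.26 to 0.38, adjusted p = 9.39e-25 in the exact binomial test). Mir425 was lower, at -0.16 (-0.21 to -0.10, adjusted p = 2.47e-08 in the exact binomial test). All 3 members passed the test, but 38.8% of all features tested did so, 18.3% higher and 20.5% lower. Among the 95 features with at least as many counts as Gm25301 the share was 84.2%, so that passing says little of the members. Of those 95, 17 had a larger absolute log2 ratio than Gm25301, 29 than Gm24083 and 46 than Mir425.

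The binomial test covers counting error only. With a dispersion estimated from the spread of the libraries, a biological coefficient of variation of 14.6%, edgeR's exact test gave an adjusted p of 1 for each member. The differences exceeded counting error and did not pass a test that allows for the estimated replicate spread. The estimate rests on the very libraries compared, which by itself leaves few calls. Summed levels of markers of other cell types also differed between the libraries. Choroid plexus and multiciliated markers held 0.699% of the gene counts in replicate 2 and 0.978% in replicate 1, endothelial Mir126a 1.88% and 1.60%, and mural markers 0.402% and 0.313%, where Mir143 passed the exact binomial test and Mir145a did not (adjusted p = 0.531). Of the 8 neural genes tested, Mir137, Mir128-1 and Mir128-2 were lower in replicate 2 and 0 were higher in the exact binomial test. Of all features tested, 20.5% were lower and 18.3% higher. Mir92b, the neural gene with the most counts, did not pass the exact binomial test (log2 ratio 0.01, adjusted p = 0.403). Erythroid markers held 0.00762% in replicate 2 and 0.0150% in replicate 1. Within that pair of genes Mir451a was lower in replicate 2 (log2 ratio -1.73) and Mir144 higher (0.77). The part of all these markers in the members' ratios was not tested.

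**Figure D4:**
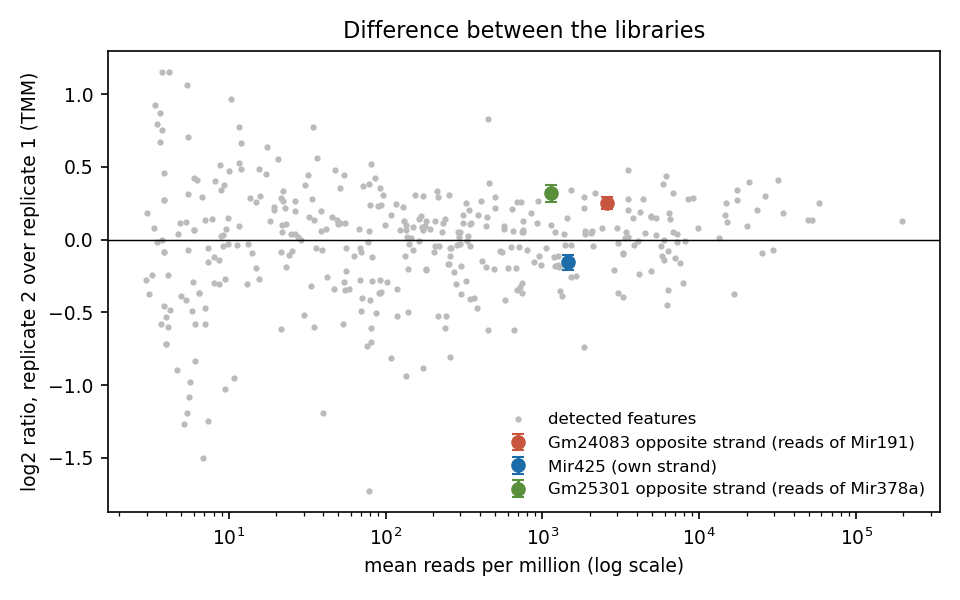
Log2 ratio of replicate 2 over replicate 1 after TMM scaling against mean RPM (log axis), with detected features in grey and the 3 members in colour with exact 95% intervals. Gm24083 (0.25) and Gm25301 (0.32) lie above 0 and Mir425 (-0.16) below, all within the cloud of other features.

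Within the chromosome 9 locus the balance between Mir191 and Mir425 differed more between the libraries than their summed reads. Gm24083 opposite-strand counts were 2.03 times those of Mir425 in replicate 2 (exact 95% interval 1.97 to 2.10) and 1.53 times in replicate 1 (1.49 to 1.58), or 1.78 ± 0.354 (SD, n = 2). The intervals did not overlap. Mir191 exceeded Mir425 in both libraries, and the ratio changed by 0.41 on the log2 scale (two-sided Fisher's exact test, p = 2.98e-34, adjusted over 3 ratios 8.93e-34). No scaling enters this ratio, but Fisher's exact test, here and below, covers counting error only. The change in the ratio was not tested against the spread between replicates. The summed level of both genes was 4030 RPM in replicate 2 and 4050 RPM in replicate 1, or 4040 ± 14.3 RPM, and after TMM scaling the sum was 0.10 higher in replicate 2 on the log2 scale (0.07 to 0.13).

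Against Mir378a, the change between the libraries was smaller for Mir191 than for Mir425. The 3 ratios come from the same 3 counts in each library, so any 2 of them fix the other. Those with Mir378a were added after the counts had been seen, and multi-mapped reads are not in the Gm25301 counts. Gm24083 counts were 2.22 times those of Gm25301 in replicate 2 (exact 95% interval 2.15 to 2.30) and 2.33 times in replicate 1 (2.25 to 2.41). This difference did not pass Fisher's exact test (p = 0.0679, adjusted 0.0679). Gm25301 counts were 0.915 times those of Mir425 in replicate 2 (0.879 to 0.952) and 0.659 times in replicate 1 (0.634 to 0.684), a difference that passed Fisher's exact test (p = 7.36e-32, adjusted 1.10e-31). On the log2 scale the ratio of Mir191 to Mir378a reads, which lie on different chromosomes, differed by -0.07 between replicate 2 and replicate 1, against 0.41 for the ratio of Mir191 to Mir425, which lie 384 nucleotides apart.

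To see how common such shifts were, the same ratio was taken for the 75 pairs of neighbouring detected microRNA genes read on 1 strand and at most 1000 nucleotides apart. This background was chosen after the counts had been seen. Of these pairs, 40% passed Fisher's exact test at an adjusted p under 0.05, and the median size of the log2 change was 0.19. The pair of Gm24083 and Mir425 had rank 10 by size, behind pairs such as Mir144 and Mir451a (2.51). Among the 25 pairs in which both genes had at least 1000 counts in each library, the median size was 0.16 and the pair of Gm24083 and Mir425 had the largest change, followed by Mir23b and Mir27b at 0.36. This limit was also set after the counts had been seen, and it left out every pair with a larger change. Some of those passed Fisher's exact test, Mir144 and Mir451a among them, and others did not.

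**Figure D5:**
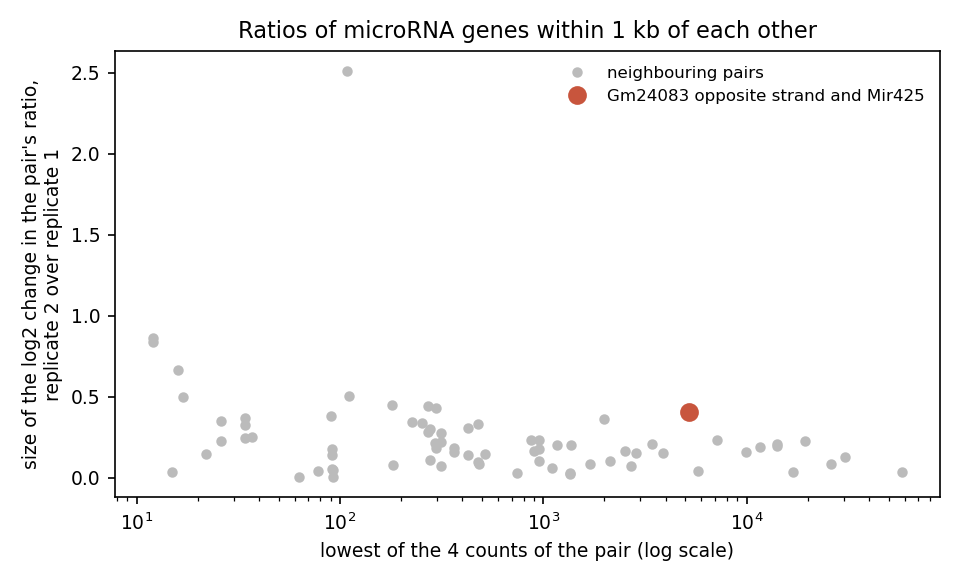
Size of the log2 change in the ratio of neighbouring microRNA genes between replicate 2 and replicate 1, against the lowest of the pair's 4 counts (log axis), for 75 pairs. The pair of Gm24083 and Mir425 (red, 0.41) lies above the other pairs with at least 1000 counts for each gene in each library. Pairs with larger changes hold a gene with fewer counts and lie further left.

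MicroRNAs in common use as normalisers for small RNA, a list that holds Mir191 and Mir425, summed to 4.38% ± 0.103 of the own-strand gene counts, with 12 of 13 genes detected. The Mir191 reads in this sum are opposite-strand counts that the total does not hold. Mir93, of the Mcm7 intron cluster, led at 23411 ± 1109 RPM, followed by Mir423 at 6313 ± 576, Mir16-1 at 4354 ± 366 and Mir361 at 3513 ± 155 RPM (SD, n = 2). Mir191 followed these at 2576 ± 177 RPM and Mir425 was next. Both Mir16, both Mir103 and both Mir26a genes, 6 of the 13, have copies. Multi-mapped reads are not in their counts, so this order is one of counted reads. Between the libraries 6 of the 13 were higher in replicate 2 and 3 lower in the exact binomial test, where 18.3% of all features tested were higher and 20.5% lower. Features with high counts pass more often: of the 95 with at least as many counts as Gm25301, 84.2% passed, 49 higher and 31 lower. The list had a median log2 ratio of 0.06, against 0.03 over all features tested. The largest log2 ratios of the list, both on low counts, were at Mir103-1 and Mir26a-2. Mir103-1 was lower (-2.04, 6 and 30 counts in replicates 2 and 1) and Mir26a-2 higher (0.56, 165 and 127 counts). The 4 genes that did not pass were Mir25 (0.05), Mir186 (0.06), Mir103-2 (-0.06) and Mir26a-1 (-0.06), with adjusted p-values of 0.273, 0.272, 0.779 and 0.957 in the exact binomial test.

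Other microRNAs housed in genes of metabolism or contraction were set beside Mir378a. In that list 7 of 8 genes were detected, and the list summed to 0.376% ± 0.00696 of the own-strand gene counts. The Mir378a reads in this sum, 4752 of 14889 counts in replicate 2 and 4337 of 15279 in replicate 1, are opposite-strand counts outside that total. Both Mir103 genes, Mir107 and Mir378a, 4 of the 8, have copies, and multi-mapped reads are not in their counts. The order below is therefore one of counted reads. Mir107 led at 2380 ± 39.1 RPM and Mir378a followed. Mir33, in an intron of the sterol regulator Srebf2, reached 130 ± 7.06 RPM and Mir103-2, in Pank2, 68.8 ± 5.75 RPM. The heart and muscle members Mir208b, Mir208a and Mir499 stood at 35.8 ± 2.91, 3.87 ± 0.318 and 3.10 ± 0.767 RPM. Between the libraries 3 of the 8 were higher in replicate 2 and 1 lower in the exact binomial test, against 18.3% higher and 20.5% lower of all features tested. The list's median log2 ratio was 0.01, against 0.03 over all features tested. MicroRNAs of brown fat, a tissue in which miR-378 is known, had 2 of 5 genes detected, Mir455 at 220 ± 16.4 RPM with rank 172 and Mir193b at 7.85 ± 0.113 RPM. Of the 3 not detected, Mir365-1 and Mir365-2 have copies, and multi-mapped reads are not in their counts. The 3 brown fat genes tested between the libraries had adjusted p-values of 0.279 to 0.840 in the exact binomial test.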

How the data were processed

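The authors deposited 1 table of whole-number read counts per gene for each library, with columns for either strand, the strand of the gene and the opposite strand, and with 4 summary rows. Build mm10 and GENCODE M4 are named in the deposited read-me texts. The aligner and counting tool were not given in the sources used here. Multi-mapped reads have their own summary row. Summary rows (unmapped 15.0% and 16.7%, multi-mapped 43.9% and 40.6%, unassigned 2.98% and 3.13% of reads in replicates 2 and 1) were left out of library sizes. Of 1973 identifiers, 1894 were matched to GENCODE M21 on the same build.

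RPM were computed from the counts over own-strand gene totals. Features were gene by strand. Ratios used TMM (edgeR 4.0.16, R 4.3.3) with a prior count of 0.5, exact binomial tests (scipy 1.17.1) and Benjamini-Hochberg adjustment over features with at least 10 counts in both libraries together, at 0.05. With 1 group, edgeR's quasi-likelihood test could not be fitted, so these tests compare libraries, not conditions. The libraries were not copies (chi-square 34708 on 391 degrees of freedom over detected features). The binomial test was tested on simulated data. These data held counting error only, so how the binomial test behaves under replicate spread was not tested. Copies were shared stretches of at least 20 nucleotides between annotated microRNA transcripts. Hairpins were folded with ViennaRNA 2.7.2. Intervals cover counting error only, since PCR reads are not independent molecules.

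The members, lists and tests were chosen with earlier results of these data known. Named genes were the members, genes near them or of the Mir378 family with a count, up to 4 leading detected genes of each list, genes opposite another microRNA gene with at least 50 opposite-strand counts in each library, and the 2 features on either side of each member in level. Mir489, Mir144, Mir451a, Mir23b, Mir27b, Mir25, Mir186, Mir103-1, Mir103-2, Mir26a-1, Mir26a-2, Mir145a, Mir365-1, Mir365-2 and the muscle genes were named after their values were seen.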

Additional observations from a re-analysis of the deposited data

How the results depend on the processing

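Of 76 recomputed values, 63 kept their call or moved within the replicate spread (counts of features, within 1.5 times), 10 moved further and 3 no longer passed the test. Part of the 63 was fixed in advance. Leaving out 1 of 2 libraries always moves a mean by less than the SD. The either-strand column repeats the counts used, because the members had 0 counts on the other strand. With all reads as denominator, the levels of Gm24083, Mir425 and Gm25301 were 980, 558 and 431 RPM. With edgeR's exact test and an estimated dispersion, the log2 ratios of Gm24083, Mir425 and Gm25301 were 0.25, -0.16 and 0.31, each with an adjusted p of 1, and features called fell to 1 (0 higher and 1 lower, with 31 at an unadjusted p under 0.05), against 193 (91 and 102) in the binomial test. With library totals, which moved the median log2 ratio of all features by -0.11, 58 were higher and 145 lower, and with DESeq2 size factors 71 and 123. Under both scalings the members kept their directions and passed the exact binomial test: Gm24083 at 0.14 and 0.20, Gm25301 at 0.21 and 0.26, and Mir425 at -0.27 and -0.21. Without genes that have copies, summed counts relative to the own-strand gene counts were 0.000174% for the Mir378 family, which loses Gm25301, 3.87% for the normalisers and 0.0172% for the genes housed in metabolic or contractile genes. No paired analysis was possible because there is 1 group. With 2 libraries, leaving out either leaves a value with no test, and the ratio between libraries has none.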
